A study of Mus musculus with 14 samples.

Results

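Tandem pairs of poly(A) sites lying 1000 to 5000 nt apart on the same strand were examined in 14 mouse 3P-seq libraries. They numbered 1375 of the 3304 tandem pairs that passed the same filters at distances of 100 to 5000 nt; the other pairs were 797 at 100 to under 300 nt and 1132 at 300 to under 1000 nt. Members were chosen by rule. Overlapping or touching intervals were merged over the 14 libraries into 159969 sites, chromosomes M, X and Y were dropped, and the 17919 sites with at least 20 tags in at least 2 libraries were kept. Neighbouring kept sites formed 2105 pairs at 1000 to 5000 nt. Of these, 218 were dropped because 1 site held under 5% of the pair's tags, 467 because the pair reached 20 tags in fewer than 6 tissue libraries, and 45 for both reasons. The 5% share was taken on tags summed over libraries, while the 20-tag minima were counted in single libraries. The shares and the abundance of the pairs as a whole are therefore a description. A site could be kept through as few as 2 libraries. A difference that sets those libraries apart is then partly fixed by the rule. The same holds where a site reached the 5% share only through the libraries in which it was high.

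A poly(A) site is the position at which a pre-mRNA is cleaved and given its poly(A) tail. When a transcription unit holds several such sites in tandem, use of the proximal (upstream) site gives a shorter transcript end and use of the distal (downstream) site a longer one. The stretch between them can carry binding sites for microRNAs and RNA-binding proteins, so that site choice can decide whether a transcript contains them. Site choice is known to differ between tissues, and proliferating cultured cells are known for more use of proximal sites than differentiated tissues.

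3P-seq, a sequencing method for mapping poly(A) positions, reads the ends of polyadenylated RNA, and each tag marks 1 cleaved end. Of heart, muscle, liver, lung, kidney and white adipose tissue there was 1 library each from miR-22 knockout mice, which carry the miR-22D allele, and 1 from wild-type mice. Mouse embryonic stem cells (mESC) and 3T3, a mouse fibroblast line, gave 1 library each and served as cultured cells with neither a treatment nor a genotype in the labels. The labels give the background 129S5/SvEvBrd for all samples; age, sex and the sharing of animals between tissues are not given in the sources used here. No group was replicated, so the p-values below measure the spread between the knockout and wild-type libraries of a tissue and between tissues, not between animals of 1 group. In whole tissue, fewer cells of a type and less RNA per cell cannot be told apart, and this touches every tissue difference below.

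The microRNA removed in the knockout is printed here because it names what the knockout lacks. The mature 3p arm has 22 bases and comes from RefSeq (GRCm38.p6, chr11:75463772-75463793, plus strand), with the seed, bases 2 to 8, in capitals.
mmu-miR-22-3p: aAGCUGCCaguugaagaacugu
Sites are given in mm9, counted from 1, with the proximal position first. A genome or annotation of that build was not used here, so pairs are named by position only, without genes or site sequences. For the same reason the deleted locus and the tissue markers were not checked, and whether both sites of a pair end transcripts of 1 gene was not tested.

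The libraries held between 2036838 tags (adipose knockout) and 6010465 tags (lung knockout). Members received 622104 tags in lung knockout and 443197 in lung wild type, between 87328 and 249949 in the other 10 tissue libraries, 355599 in mESC and 332719 in 3T3. The number of members with at least 20 tags ran from 839 in muscle knockout to 1368 in lung knockout. A total of 608 members reached 20 tags in all 12 tissue libraries. Mitochondrial tags made up 3.52% to 31.3% of a tissue library and did not enter the pairs.

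The median member spanned 2041 nt, with quartiles at 1407.5 and 3102 nt. Of the 1375 members, 667 lay 1000 to under 2000 nt apart, 341 lay 2000 to under 3000 nt apart and 367 lay 3000 to 5000 nt apart. They used 2652 distinct sites and fell into 1277 chains: 1182 chains of 2 sites, 92 of 3 and 3 of 4. A site could also be shared with a shorter pair, and 524 members (38.1%) shared a site with another tandem pair in one of these ways, against 553 (48.9%) at 300 to under 1000 nt and 398 (49.9%) at 100 to under 300 nt. Values of pairs that share a site are not independent.

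Weaker sites of the same strand, which had not passed the filter on tags, lay between the sites of 1243 members (90.4%), with a median of 3 such sites. Together they held a median of 1.9% of the pair's tags. A site of the opposite strand that passed the filter lay between the sites of 62 members (4.51%), against 32 pairs (2.83%) at 300 to under 1000 nt and 19 (2.38%) at 100 to under 300 nt. The member's distal site held the majority of tags in 729 members (53.0%), close to the 51.9% and 52.5% of the 300 to under 1000 nt and 100 to under 300 nt pairs. Among the 62 members with an opposite-strand site between, that share was 37.1%. Total abundance was much the same in the 3 classes, with a median of 1359 tags per member over 14 libraries, against 1408.5 at 300 to under 1000 nt and 1539 at 100 to under 300 nt.

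The 2 sites of a member followed each other less closely than those of shorter pairs. Over the 12 tissue libraries, Pearson's r between the log2 CPM of the 2 sites had a median of 0.50 in members, against 0.59 at 300 to under 1000 nt and 0.64 at 100 to under 300 nt. Within the members it was 0.55 at 1000 to under 2000 nt, 0.54 at 2000 to under 3000 nt and 0.38 at 3000 to 5000 nt. It was below 0 in 239 members (17.4%), against 11.3% and 8.28% of the 300 to under 1000 nt and 100 to under 300 nt pairs. These values are descriptions: each r has 12 points from 6 tissues, and all pairs share the same libraries and depths. The range of the distal share over tissue libraries exceeded 50 percentage points in 240 members (17.5%), against 10.9% and 8.03% of the shorter classes.

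The limits of the rule cut through a continuous range of pairs. Just inside 1000 nt were the chromosome 9 pair at 75066290 and 75067290 (1000 nt, distal share 64.5%) and the chromosome 2 pair at 27044915 and 27043914 (1001 nt, 84.0%). Just outside were 2 pairs of 998 nt on chromosomes 14 and 3, with distal shares of 87.8% and 44.2%. At the upper limit, pairs of 4980 and 4994 nt were inside and pairs of 5003 and 5008 nt outside. The 2 members closest to the 5% limit gave their weaker site 5.004% and 5.035% of the tags, and the 2 nearest pairs left out gave it 4.922% and 4.994%.

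Distal share, the percentage of a pair's tags at its distal site, was first compared between libraries as a median over members with at least 20 tags there. It was 36.4% in mESC and 37.9% in 3T3, lower than in every tissue library. Lung stood at the other end, with 59.5% in knockout and 59.2% in wild type. Muscle followed with 53.8% in knockout and 55.9% in wild type, then liver with 53.5% and 52.1% in the same order. The remaining medians were 51.9% in knockout and 51.4% in wild-type kidney, 51.8% in knockout and 50% in wild-type heart, and 50.8% in knockout and 48.6% in wild-type adipose tissue. The within-tissue SD of these medians, pooled over 6 tissues with 2 libraries each, was 1.1 percentage points. Both lung libraries lay above every other tissue library by more than that SD. Both muscle libraries lay above both liver libraries and liver lay just above kidney, but the nearest libraries differed by less than that SD. The libraries of kidney overlapped those of heart, and those of heart overlapped adipose tissue.

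Library depth sets which members can enter each median, so the 608 members with 20 tags in all 12 tissue libraries were also used. On these same pairs lung gave 61.2% in knockout and 61.3% in wild type, muscle 53.0% and 56.6%, and the other 8 tissue libraries between 48.0% and 52.7%. Here liver lay below kidney, with 50% in knockout and 48.7% in wild type against 51.05% and 50.51%. The distance classes differed in how far the libraries spread. At 100 to under 300 nt lung had 55% in knockout and 53.5% in wild type, and the other 10 tissue libraries ran from 47.8% to 54.7%, so that lung wild type lay among them. The mESC median was 48.6% and the 3T3 median 48.2% in that class, 41.7% and 45% at 300 to under 1000 nt, and 31.1% and 29.5% in members 3000 to 5000 nt apart.

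**Figure D1:**
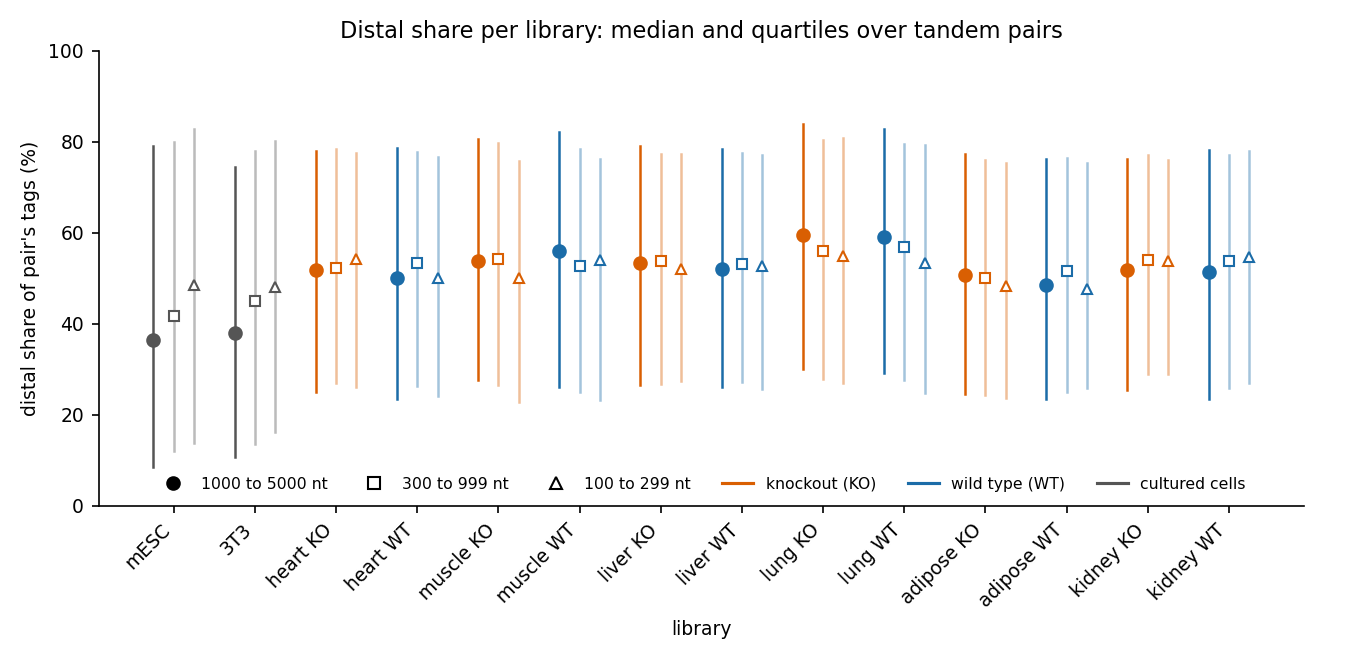
Median (symbol) and quartiles (bar) of the distal share in percent, per library, over pairs with at least 20 tags; filled circles are pairs 1000 to 5000 nt apart, open squares 300 to under 1000 nt and open triangles 100 to under 300 nt. At 1000 to 5000 nt mESC (36.4%) and 3T3 (37.9%) lie lowest and the 2 lung libraries (59.5% in knockout and 59.2% in wild type) highest.

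Between libraries, the distal share of a single member typically moved by several points. Over the 608 members, the median absolute difference between the 2 libraries of a tissue lay between 4.62 points (liver) and 6.76 points (adipose tissue). For the 60 pairings of libraries from different tissues it lay between 6.61 and 10.8 points. The 2 ranges overlapped only narrowly, at their edges.

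Which members differed in site use in a given tissue was then asked by setting its libraries against the average of the remaining tissues. The shift is the log2 ratio of the odds of the distal site, so that 1 means doubled odds and library depth cancels; calls needed an adjusted p under 0.05 in edgeR's quasi-likelihood test over all 3304 pairs. In 1 or more tissues 422 of 1375 members (30.7%) were called, against 22.3% of all tandem pairs. The share was 18.4% at 300 to under 1000 nt and 13.6% at 100 to under 300 nt. Among the members themselves it was 25.6% at 1000 to under 2000 nt, 31.4% at 2000 to under 3000 nt and 39.2% at 3000 to 5000 nt. Of the called members, 272 were called in 1 tissue, 94 in 2 and 56 in 3 or more. Among the 851 members that share no site with another pair, 276 (32.4%) were called.

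Lung was the tissue with the most members called, and mainly toward the distal site. There 169 members (12.3%) shifted toward the distal site, against a background of 7.96% of all pairs, and 38 members (2.76%) toward the proximal site, against 2.88%. Toward the distal site the shorter classes had 5.39% (300 to under 1000 nt) and 4.14% (100 to under 300 nt). In 100 of the 169 members both lung libraries had a higher distal share than all 10 other tissue libraries. The 169 members had a median distal share of 79.3% in lung and 50.2% in the other tissues. They carried a median of 263.5 tags in a lung library, more than in any other tissue's calls, and the part of this depth in the count was not tested. The count was 124 without the lung knockout library and 64 without the lung wild-type library, while leaving out any 1 of the other 10 gave 126 to 171; toward the proximal site it was 24 without lung wild type.

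Muscle was second toward the distal site, with 75 members (5.45%) against a background of 3.54%, and 48 members (3.49%) toward the proximal site against 2.75%. Without the muscle knockout library the counts were 33 and 26, and without the wild-type library 7 and 7. Heart had 28 members toward the distal site (2.04%, background 1.12%) and 42 toward the proximal site (3.05%, background 1.91%). Without heart knockout these were 13 and 16, and without heart wild type 13 and 9. Liver had 35 members toward the distal site (2.55%, background 1.73%) and 57 toward the proximal site (4.15%, background 2.63%). Without liver knockout these were 12 and 13, without liver wild type 13 and 9, and without muscle wild type the proximal count was 31.

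Adipose tissue had 30 members toward the distal site (2.18%, background 1.51%) and 51 toward the proximal site (3.71%, background 2.88%). Without adipose knockout these fell to 3 and 2, without adipose wild type to 15 and 11, and without muscle wild type the distal count was 19. Kidney had 35 members toward the distal site (2.55%, background 1.69%) and 49 toward the proximal site (3.56%, background 2.33%). Without kidney knockout these were 13 and 18, and without kidney wild type 9 and 7. The kidney counts also moved without libraries of other tissues: toward the distal site they were 22 without heart wild type, liver knockout or adipose knockout, 15 without muscle knockout, and 16 without muscle wild type or liver wild type. Toward the proximal site they were 27 without muscle knockout, 21 without muscle wild type, 26 without liver wild type and 30 without adipose knockout. In heart, liver, adipose tissue and kidney more members were called toward the proximal site, and in lung and muscle toward the distal site; this balance was not itself tested.

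**Figure D2:**
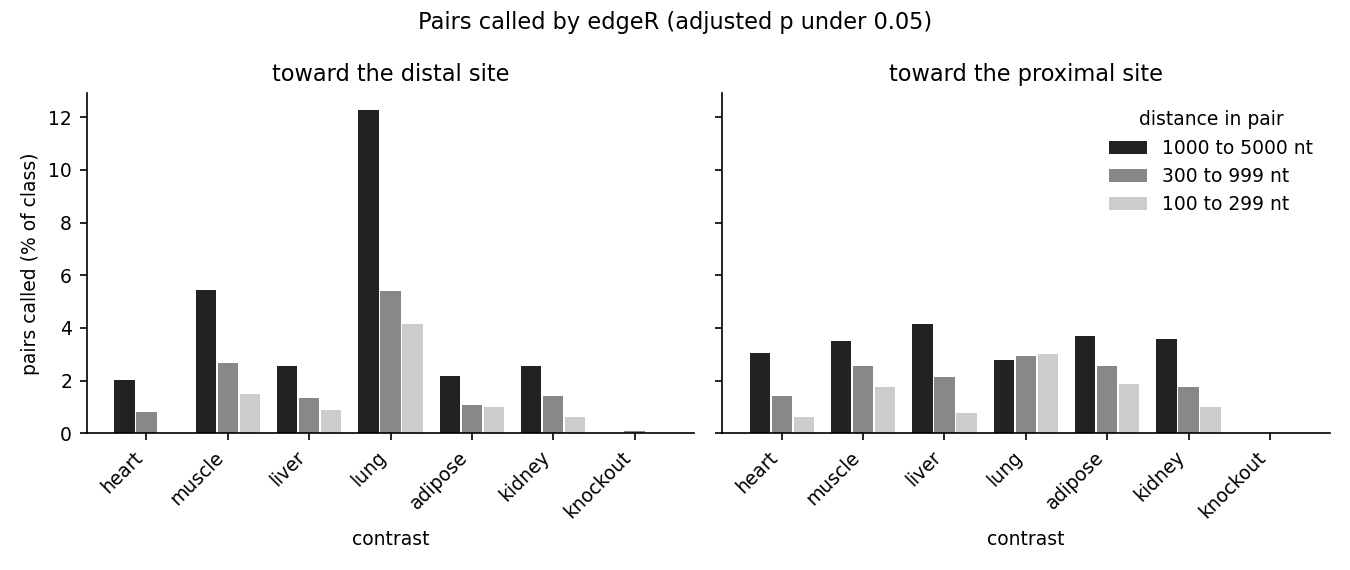
Percentage of pairs called by edgeR in each tissue against the other 5, and in knockout against wild type, toward the distal site (left panel) and the proximal site (right panel); dark bars are pairs 1000 to 5000 nt apart, mid-grey 300 to under 1000 nt and light grey 100 to under 300 nt. Lung toward the distal site is the tallest group of bars, at 12.3%, 5.39% and 4.14%.

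Which site of a called member differed in abundance depended on the scaling of the libraries. With TMM-scaled CPM, 50 of the 169 lung members had only the distal site at least 2-fold higher in lung than in the other tissues and 86 had only the proximal site at least 2-fold lower. Scaled to total tags the counts were 101 and 43, the reverse order. Muscle toward the distal site went the opposite way, with 40 and 21 under TMM and 20 and 43 under total tags. The shift between the sites is the same under both scalings, since the library factor cancels. Over these called members as sets, the site that moved could not be assigned.

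The members named for a tissue were chosen among its calls for a large shift, at least 50 tags in each tissue library and both libraries of the tissue beyond the other 10, so the lack of overlap in their values follows from the choice. In the chromosome 8 pair at 4259737 and 4257674 (minus strand, 2063 nt), the distal site took 56.8% of tags in lung knockout and 51.4% in lung wild type. The other 10 libraries had between 0% in muscle knockout and 20% in adipose knockout, with a median of 3.34%. The lung shift toward the distal site was called (edgeR adjusted p = 3.19e-07). Muscle had 0 distal tags of 73 in knockout and 0 of 107 in wild type, which allow shares of up to 4.11% and 2.8%. The muscle shift toward the proximal site was also called (edgeR adjusted p = 0.00312), but not without muscle knockout (edgeR adjusted p = 0.0669) or without muscle wild type (0.134). The fitted sizes of both shifts rest on the zero counts of muscle, the lung one through the average of the other tissues, and are not given.

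In the chromosome 3 pair at 89866368 and 89869796 (plus strand, 3428 nt), distal shares were 43.8% in lung knockout and 53.6% in lung wild type. Elsewhere they ran from 1.69% in muscle wild type through a median of 6.76% to 23.2% in adipose knockout. Muscle wild type was the lowest library and adipose tissue the nearest to lung, and the lung shift was 3.49 ± 0.46 (SE; edgeR adjusted p = 4.1e-05). The chromosome 8 pair at 34894536 and 34893148 (minus strand, 1388 nt) separated lung from muscle. Its distal share was 82.9% in lung knockout and 82.5% in lung wild type, 5.22% in muscle knockout and 9.21% in muscle wild type, and between 23.1% in liver knockout and 77.5% in heart wild type in the other 8 libraries. The lung shift was 3.09 ± 0.45 (SE; edgeR adjusted p = 0.000165) and the muscle shift -4.10 ± 0.52 (SE; edgeR adjusted p = 1.41e-05).

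Toward the proximal site in lung, the chromosome 7 pair at 148652510 and 148657372 (plus strand, 4862 nt) had distal shares of 71.7% in lung knockout and 63.9% in lung wild type. The other 10 libraries lay between 90.4% in liver knockout and 99% in adipose wild type, with a median of 95.7%. The lung shift was -3.38 ± 0.54 (SE; edgeR adjusted p = 0.000374). The most abundant member, on chromosome 11 at 120590804 and 120586737 (minus strand, 4067 nt, 117120 tags), had distal shares of 3.46% in lung knockout and 6.24% in lung wild type, 100% (716 of 716 tags) in liver knockout and 99.9% (993 of 994) in liver wild type. Its lung shift toward the proximal site (edgeR adjusted p = 1.46e-08) and its liver shift toward the distal site (edgeR adjusted p = 2.13e-10) were both called. Their sizes rest on the 1 proximal tag of the 2 liver libraries and are not given. Kidney lay near liver, with 98.6% in knockout and 99.1% in wild type, and was also called toward the distal site (edgeR adjusted p = 0.000977). Heart (8.5% in knockout and 15.8% in wild type) and muscle (15.9% and 9.87%) lay nearer lung and were called toward the proximal site. Adipose tissue lay between, with 63.4% in knockout and 37.6% in wild type. In this pair lung and liver differed mainly at the proximal site. Its TMM-scaled CPM was 6879 in lung knockout and 6688 in lung wild type, against 0 and 0.33 in liver in the same order. The distal site had 246 and 445 in lung, against 276 and 328 in liver.

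Muscle held the member with the widest range of distal share among those with at least 200 tags in every tissue library. In the chromosome 14 pair at 56195788 and 56200363 (plus strand, 4575 nt), the distal site took 29.2% of tags in muscle knockout and 13.5% in muscle wild type. Heart, with 64.0% in knockout and 82.8% in wild type, and kidney, with 75.9% in knockout and 75.5% in wild type, came next, and the highest library was adipose knockout at 99.5%. The shift was -6.23 ± 0.63 (SE; edgeR adjusted p = 9.43e-07). In the opposite direction, the abundant chromosome 12 pair at 101445520 and 101448024 (plus strand, 2504 nt, 45847 tags) had distal shares of 50.6% in muscle knockout and 56.9% in muscle wild type. The other tissue libraries lay between 7.5% in liver wild type and 31.4% in adipose knockout, with a median of 14.2%. Its shift was 2.75 ± 0.40 (SE; edgeR adjusted p = 0.000129), and without muscle wild type it was 2.32 and not called (edgeR adjusted p = 0.06).

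Both other muscle members named by the rule moved toward the distal site. The chromosome 6 pair at 124765047 and 124760730 (minus strand, 4317 nt) had 65.2% in muscle knockout and 84.9% in muscle wild type, against 6% to 61.8% elsewhere, a shift of 3.33 ± 0.50 (SE; edgeR adjusted p = 0.000155). The highest of the other libraries was kidney wild type, close below muscle knockout. Without muscle wild type the shift was 2.84 and not called (edgeR adjusted p = 0.0783). For the chromosome 9 pair at 72861737 and 72863797 (plus strand, 2060 nt) the values were 68.5% in muscle knockout and 67.0% in muscle wild type, against 8.73% to 36.7% elsewhere. This shift was 2.67 ± 0.53 (SE; edgeR adjusted p = 0.00248). It was not called without muscle knockout, at 2.37 (edgeR adjusted p = 0.108), or without muscle wild type, at 3.02 (edgeR adjusted p = 0.111).

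In 2 pairs heart had the highest distal shares of all tissues and adipose tissue the lowest. In the chromosome 15 pair at 99555435 and 99558544 (plus strand, 3109 nt), the distal share was 49.4% in heart knockout and 47.2% in heart wild type, 0.857% in adipose knockout and 0.536% in adipose wild type, and 1.7% to 14.3% in the other 8 libraries. The heart shift was 4.74 ± 0.44 (SE; edgeR adjusted p = 1.03e-07) and the adipose shift -3.77 ± 0.43 (SE; edgeR adjusted p = 2.18e-05). Without the heart libraries the distal site held under 5% of the pair's tags, and likewise without mESC and 3T3. The pair thus passed the share filter through these libraries, and the heart difference is partly fixed by the rule. The proximal site of this pair was also the distal site of the member at 99554222 and 99555435 (1213 nt), so both carry its 7523 tags in adipose knockout and 7609 in adipose wild type. There adipose tissue shifted toward the distal site by 1.74 ± 0.41 (SE; edgeR adjusted p = 0.0142), with 97.4% in knockout and 96.1% in wild type against 73.5% to 95.5% elsewhere. It was not called without adipose knockout, at 1.7 (edgeR adjusted p = 0.193), or without adipose wild type, at 1.78 (edgeR adjusted p = 0.116).

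In the chromosome 11 pair at 75322948 and 75326665 (plus strand, 3717 nt), heart again had the highest distal shares, 58.8% in knockout and 82.8% in wild type. Muscle had 47.1% in knockout and 40.7% in wild type, and adipose tissue the lowest values, 1.94% in knockout and 8.99% in wild type. The heart shift was 3.49 ± 0.49 (SE; edgeR adjusted p = 6.72e-05). The adipose shift was -3.28 ± 0.52 (SE; edgeR adjusted p = 0.00084) and, without adipose knockout, -2.50 and not called (edgeR adjusted p = 0.0897). Toward the proximal site in heart, the chromosome 11 pair at 60369406 and 60372011 (plus strand, 2605 nt) had 32.9% in heart knockout and 21.9% in heart wild type, against 54.7% to 89.1% elsewhere. That shift was -3.42 ± 0.56 (SE; edgeR adjusted p = 0.000422), and without heart wild type it was -2.97 and not called (edgeR adjusted p = 0.0795).

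In liver the chromosome 4 pair at 116828379 and 116826431 (minus strand, 1948 nt) shifted toward the proximal site. Its distal share was 55.4% in liver knockout and 52.8% in liver wild type, and the other 10 libraries lay between 74.6% in kidney knockout and 98.0% in adipose knockout, with a median of 90.3%. The shift was -3.26 ± 0.44 (SE; edgeR adjusted p = 2.78e-05), and kidney was the next lowest tissue. Without the liver libraries the proximal site held under 5% of the pair's tags. The pair thus passed the share filter through liver, and its liver difference is partly fixed by the rule. Both other liver members named here shifted toward the distal site, which stayed in the minority. The chromosome 9 pair at 107951110 and 107954031 (plus strand, 2921 nt) had 17.3% in liver knockout and 12.8% in liver wild type, against 1.75% to 10.7% elsewhere (shift 2.07 ± 0.41, SE; edgeR adjusted p = 0.00273). Without the liver libraries its distal site held under 5% of the tags, so this pair too passed the share filter through liver. It was not called without liver knockout, at 1.89 (edgeR adjusted p = 0.204), or without liver wild type, at 2.26 (edgeR adjusted p = 0.103). The chromosome 12 pair at 86475032 and 86476651 (plus strand, 1619 nt) had 34.7% in liver knockout and 28.0% in liver wild type, against 2.99% to 21.3% elsewhere (shift 2.04 ± 0.48, SE; edgeR adjusted p = 0.0133). This shift too was not called without liver knockout, at 1.99 (edgeR adjusted p = 0.26), or without liver wild type, at 2.09 (edgeR adjusted p = 0.257).

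Adipose tissue had 2 further distal shifts under the naming rule. In the chromosome 4 pair at 128685641 and 128688771 (plus strand, 3130 nt), distal shares were 94.9% in adipose knockout and 92.9% in adipose wild type, against 18.1% in heart knockout to 90.7% in liver wild type. Lung and liver wild type lay close below adipose tissue and heart and muscle far below, and the shift was 3.04 ± 0.51 (SE; edgeR adjusted p = 0.00128). In the chromosome 13 pair at 34994744 and 34997931 (plus strand, 3187 nt) they were 94.2% in adipose knockout and 74.5% in adipose wild type, against 23.4% to 71.3% elsewhere (shift 2.33 ± 0.51, SE; edgeR adjusted p = 0.0102). Without adipose knockout neither was called, at shifts of 2.74 (edgeR adjusted p = 0.0931) and 1.2 (edgeR adjusted p = 0.404). Toward the proximal site, the chromosome 2 pair at 25480213 and 25475622 (minus strand, 4591 nt) had 76.4% in adipose knockout and 72.9% in adipose wild type, against 81.8% to 100% elsewhere. Its shift was -2.84 ± 0.53 (SE; edgeR adjusted p = 0.00273), and it was not called without adipose knockout, at -3.11 (edgeR adjusted p = 0.0862), or without adipose wild type, at -2.57 (edgeR adjusted p = 0.0766).

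The kidney shifts named were small, between -1.65 and 1.75. The chromosome 16 pair at 4938294 and 4941018 (plus strand, 2724 nt) had a distal share of 61.5% in kidney knockout and 61.5% in kidney wild type, against 12.7% in heart wild type to 47.2% in liver knockout. The shift was 1.75 ± 0.41 (SE; edgeR adjusted p = 0.02), and it was not called without kidney knockout, at 2.15 (edgeR adjusted p = 0.0702), or without kidney wild type, at 1.34 (edgeR adjusted p = 0.426). The chromosome 8 pair at 42077932 and 42076272 (minus strand, 1660 nt) had 67.8% in kidney knockout and 70.1% in kidney wild type, against 78.4% to 94.9% elsewhere, a shift of -1.65 ± 0.42 (SE; edgeR adjusted p = 0.0323). Leaving out kidney knockout (edgeR adjusted p = 0.224), kidney wild type (0.345), liver knockout (0.0542), liver wild type (0.0589) or muscle wild type (0.0632) ended this call at shifts between -1.60 and -1.67. The chromosome 4 pair at 117561512 and 117556931 (minus strand, 4581 nt) had 95.8% in kidney knockout and 94.1% in kidney wild type, against 71.9% to 90.5% elsewhere. Its shift of 1.72 ± 0.48 (SE; edgeR adjusted p = 0.0437) was not called without any 1 of 8 libraries: adipose wild type, heart knockout and both libraries of kidney, liver and muscle. The shift in these fits stayed between 1.5 and 1.87, with edgeR adjusted p between 0.054 and 0.324.

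**Figure D3:**
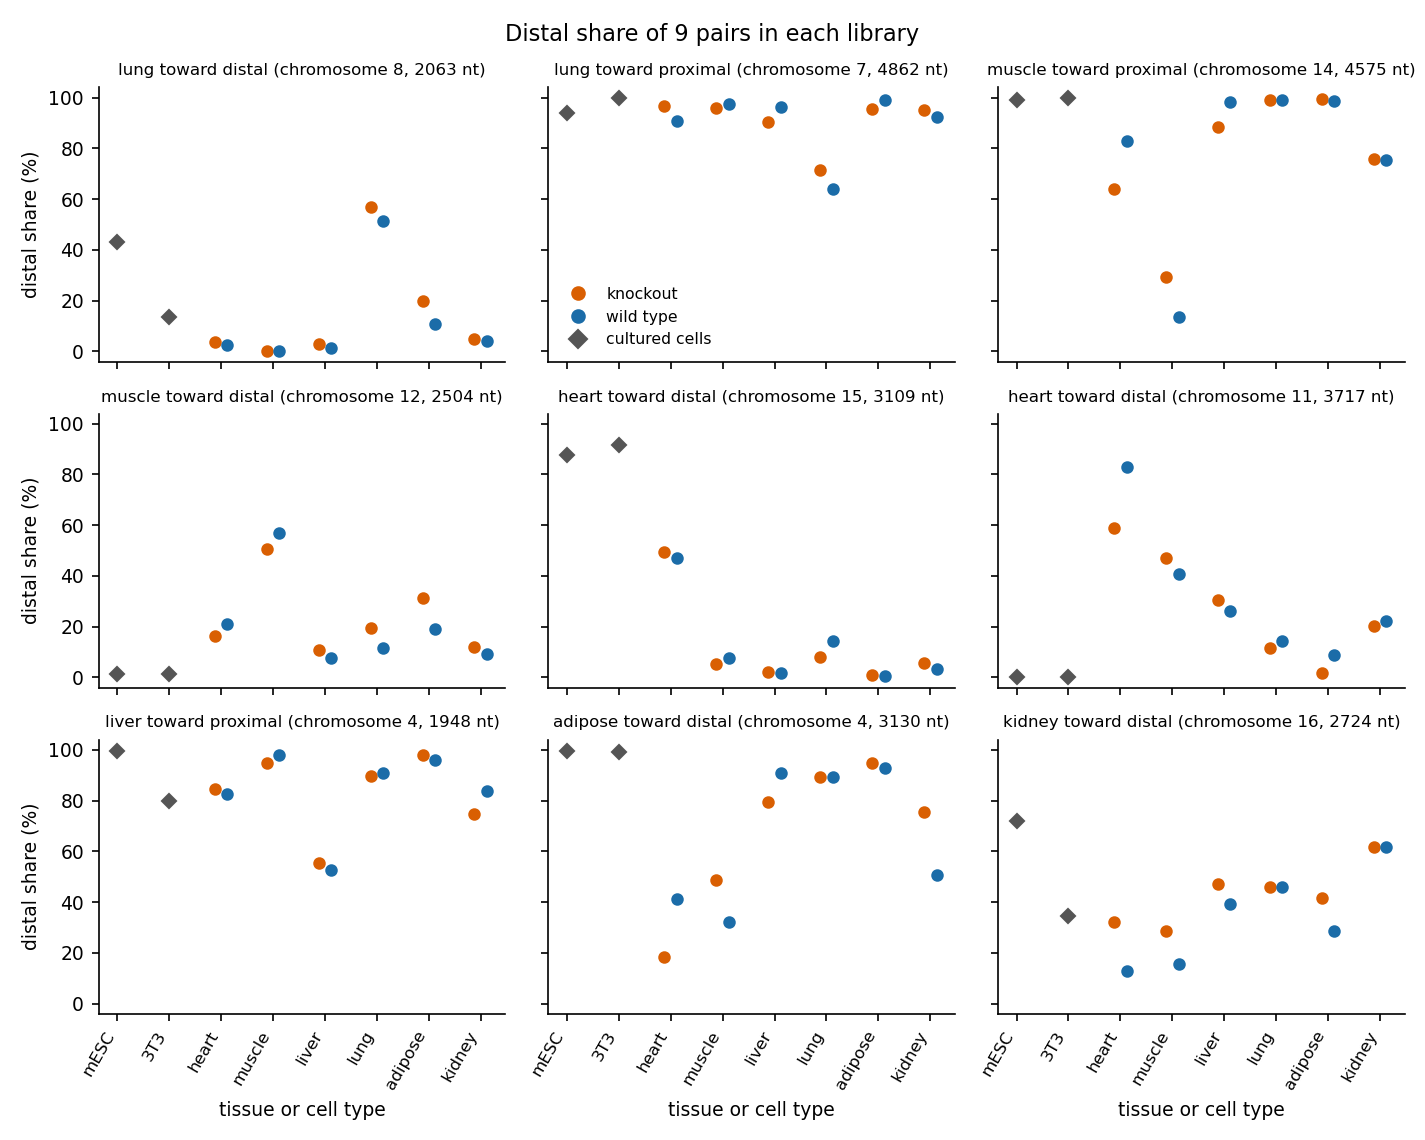
Distal share in percent of 9 members in each tissue, knockout (orange, left) beside wild type (blue, right), and in mESC and 3T3 (grey diamonds); panel titles give the called shift, chromosome and distance. In the first panel the 2 lung libraries (56.8% in knockout and 51.4% in wild type) stand apart from all other tissue libraries, which reach 20% at most.

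Knockout was compared with wild type over the 6 tissues to ask whether loss of miR-22 goes with a change of site use. No member was called in either direction by edgeR (0 of 1375, background 0.0303% toward the distal and 0% toward the proximal site) or by DESeq2. At an unadjusted edgeR p under 0.05, 62 members (4.51%) lay toward the distal site in knockout and 46 (3.35%) toward the proximal site, near the 3.9% and 2.78% of all pairs. DESeq2 gave 43 members (3.13%) and 28 (2.04%), near 2.75% and 1.73% of all pairs. Among the 608 members with 20 tags in all 12 libraries, the distal share was higher in knockout than in wild type in 6 of 6 tissues for 12 members and lower in 6 of 6 for 11. The same was not counted over all pairs, so these counts have no background and nothing is read from them. A p that misses the threshold does not show that the genotypes act alike.

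The smallest p toward the distal site in knockout belonged to the chromosome 4 pair at 134771357 and 134769889 (minus strand, 1468 nt). Its distal share was 59.1% in knockout against 22% in wild-type heart, 64.7% against 20% in muscle, 53.2% against 35% in liver, 40.3% against 15.1% in lung and 44.4% against 17.9% in kidney. In adipose tissue the order turned round, with 42.9% in knockout against 47.1% in wild type. Muscle held only 17 tags in knockout and 15 in wild type. The shift was 1.57 ± 0.38 (SE; edgeR adjusted p = 0.322). Leaving out either adipose library took adipose tissue, where the order differed, out of the genotype comparison. The fits without adipose knockout and without adipose wild type are therefore nearly the same, and both gave a shift of 1.94.

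The chromosome 1 pair at 58518366 and 58522497 (plus strand, 4131 nt) had 40% in knockout against 1.75% in wild-type heart, and 47.1% against 3.7% in kidney. Its distal site reached the tag minimum for keeping a site only in heart knockout (22 tags) and kidney knockout (48 tags). The pair thus became a member through these libraries, and its heart and kidney differences are partly fixed by the rule. In lung the distal share was 1.94% in knockout against 4.1% in wild type. The other tissues were higher in knockout, but on few distal tags. Liver was nearly equal, with 2 of 41 tags in knockout against 4 of 94 in wild type. Muscle had 5 of 45 against 2 of 52 and adipose tissue 8 of 36 against 2 of 35. With a shift of 2.41 ± 0.63 (SE, edgeR adjusted p = 0.322) the pair did not pass. Leaving out either lung library took lung, where the order differed, out of the genotype comparison, and both fits gave a shift of 3.16. Toward the proximal site in knockout, the chromosome 14 pair at 35226355 and 35224247 (minus strand, 2108 nt) had lower distal shares in knockout in 6 of 6 tissues, from 21.9% against 63.6% in adipose tissue to 85.0% against 91.3% in lung. Its shift was -1.34 ± 0.37 (SE; edgeR adjusted p = 0.441), so none of these differences passed. The smallest p in that direction belonged to the chromosome 18 pair at 36830808 and 36826907 (minus strand, 3901 nt). Its distal share was lower in knockout in 6 of 6 tissues, from 65.9% against 94.5% in adipose tissue to 86.9% against 88.2% in liver. With a shift of -1.43 ± 0.38 (SE; edgeR adjusted p = 0.322) it did not pass either.

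Within single tissues, where 1 library stands against 1 and no test is possible, differences were read over members with at least 50 tags in both libraries. The odds of the distal site were at least 2-fold higher in knockout for 101 of 496 members (20.4%) in adipose tissue, against 19% of all pairs, and at least 2-fold lower for 89 (17.9%), against 18%. In lung 193 of 1142 members (16.9%, background 15.4%) were higher and 153 (13.4%, background 13.9%) lower. Heart had 78 of 481 higher (16.2%, background 15.2%) and 73 lower (15.2%, background 13.7%), and muscle 54 of 375 higher (14.4%, background 12.3%) and 57 lower (15.2%, background 13.2%). Liver had 94 of 735 higher (12.8%, background 11.2%) and 77 lower (10.5%, background 8.89%), and kidney 110 of 781 higher (14.1%, background 14.9%) and 124 lower (15.9%, background 14.5%). All these shares lay near the background, and the median difference per tissue was between -0.241 points in muscle and 0.86 points in adipose tissue.

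**Figure D4:**
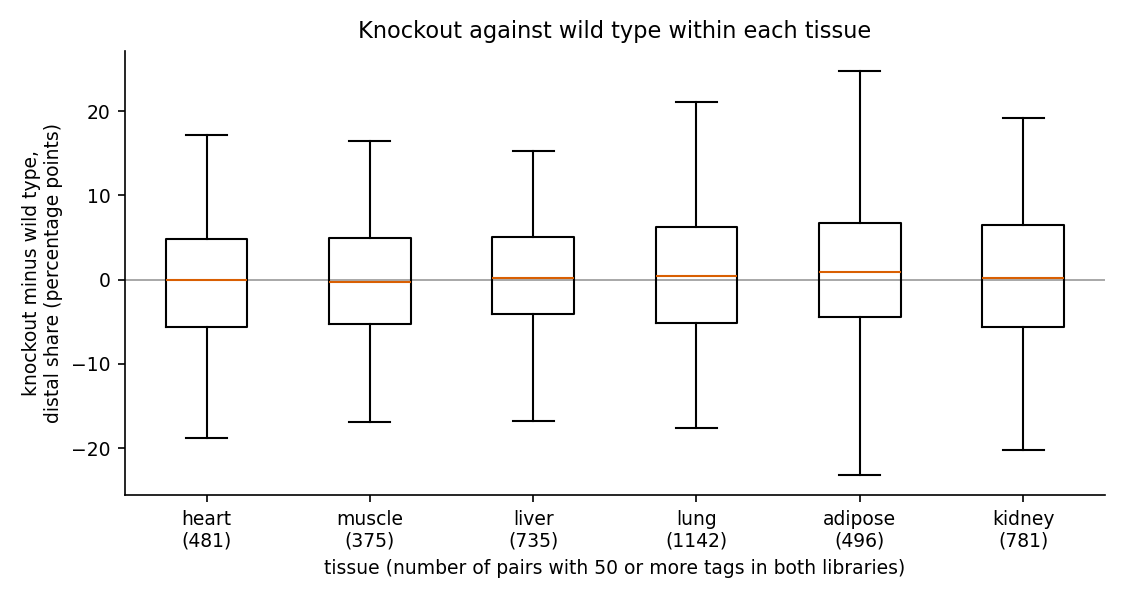
Difference in distal share, knockout minus wild type in percentage points, over members with at least 50 tags in both libraries of a tissue; boxes give quartiles, orange lines medians and whiskers the 5 and 95 percentiles. All 6 medians lie within 1 point of 0, from -0.241 in muscle to 0.86 in adipose tissue.

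The cultured cells were compared with the tissues as single libraries, without a test. In mESC 512 members had at least 50 tags there and in at least 6 tissue libraries. Of these, 246 (48.0%) had a distal share below every such tissue library, against a background of 43.3% of all pairs, and 111 (21.7%) above every one, against 24.9%. In 3T3 the numbers were 245 of 545 members below (45%, background 39.7%) and 94 above (17.2%, background 22.5%). Shorter pairs gave 42.3% below in mESC and 39.1% in 3T3 at 300 to under 1000 nt, and 37.0% and 32.3% at 100 to under 300 nt. The shares in each cell type lay near the background, and both comparisons use the same tissue libraries. A site could be kept through mESC and 3T3 alone, which by itself adds to these counts. How many members entered that way was not counted.

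**Figure D5:**
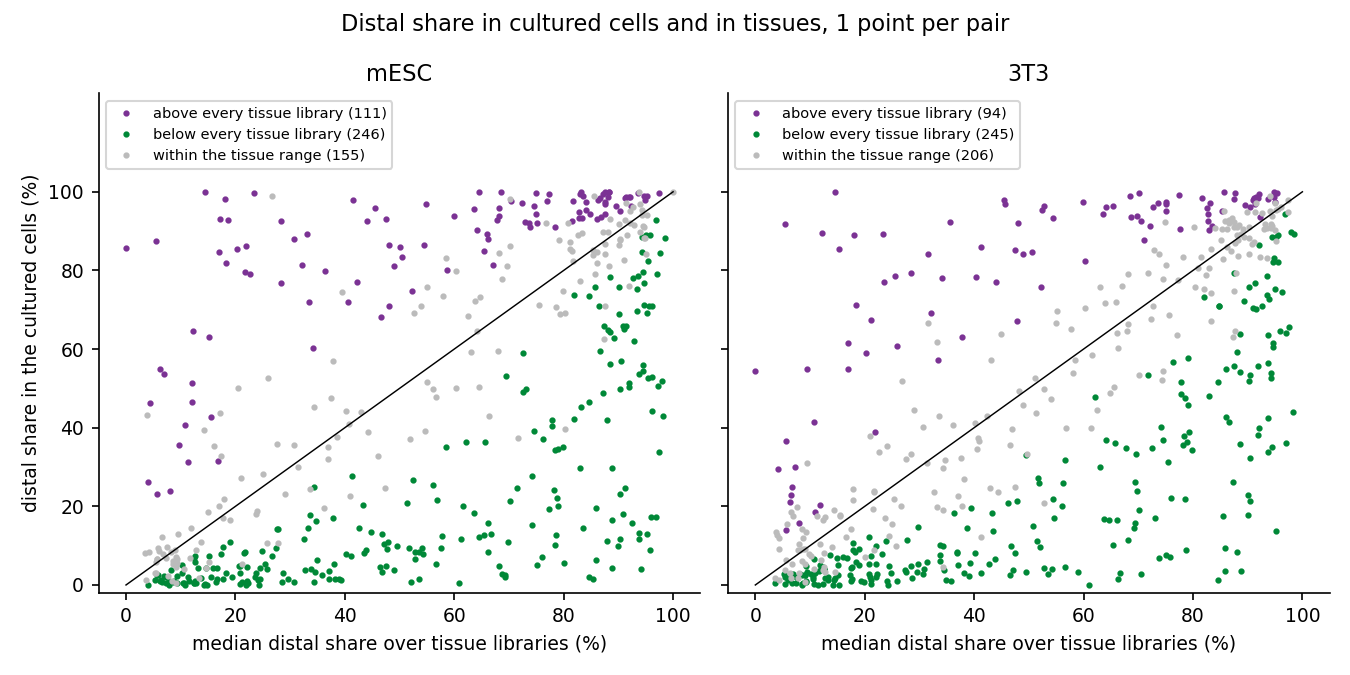
Distal share of each member in mESC (left) and 3T3 (right) against its median over tissue libraries, in percent; green points lie below every tissue library (246 in mESC and 245 in 3T3), violet points above every one (111 in mESC and 94 in 3T3), and the line marks equality. Some members that mainly use the distal site in tissues lie near 0 in the cultured cells.

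The largest gaps went both ways. In the chromosome 16 pair at 57153144 and 57154642 (plus strand, 1498 nt), the distal site took 1.92% of 8398 tags in mESC (95% Clopper-Pearson interval 1.64% to 2.23%) and 1.25% of 2395 tags in 3T3 (0.847% to 1.78%). All tissue libraries used mainly the distal site, with 70% in adipose knockout to 92.8% in muscle knockout. The chromosome 6 pair at 30401002 and 30405172 (plus strand, 4170 nt) had 17.4% in mESC (95% interval 12.3% to 23.5%) and 36.2% in 3T3 (29.1% to 43.7%), against 92.4% to 100% in tissues. Its proximal site reached the tag minimum for keeping a site only in mESC (157 tags) and 3T3 (113 tags). This pair thus became a member through the cultured cells, and its gap to the tissues is partly fixed by the rule. The intervals cover counting error only, because tags were not counted by molecular identifiers.

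Higher distal use in cultured cells was seen in the chromosome 4 pair at 41661981 and 41659064 (minus strand, 2917 nt). It had 51.4% in mESC (95% interval 44.6% to 58.1%) and 89.5% in 3T3 (86.1% to 92.3%), while tissues lay between 1.86% in adipose wild type and 25.5% in lung wild type. For the chromosome 16 pair at 18835347 and 18840251 (plus strand, 4904 nt) the share was 89.1% in mESC (86.4% to 91.5%), and 61.8% in 3T3 (56.1% to 67.3%) fell inside the tissue range of 24.5% to 63.5%. The chromosome 3 pair at 144354029 and 144349875 (minus strand, 4154 nt) split the cultured cells, with 2.09% in mESC (1.05% to 3.71%) and 77.1% in 3T3 (69.7% to 83.5%) on either side of the tissues, which had 12.5% to 32.6%.

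Several members that separated tissues lay at an extreme in the cultured cells. The chromosome 11 pair at 75322948, highest in heart, had 0 distal tags of 1937 in mESC, which allows a share of up to 0.155%, and 1 of 870 in 3T3 (0.115%, 95% interval 0.00291% to 0.639%). The chromosome 12 pair at 101445520, highest in muscle, had 1.48% in mESC (95% interval 0.978% to 2.15%) and 1.4% in 3T3 (1.17% to 1.67%), below all tissues. The chromosome 15 pair at 99555435 had 87.5% in mESC (76.8% to 94.5%) and 91.7% in 3T3 (85.3% to 96.0%), above heart and all other tissues. Without mESC and 3T3 this pair would have missed the 5% share, so that gap is partly fixed by the rule.

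At the other end of the scale, 38 members (2.76%) kept their distal share within a range of 10 points over the tissue libraries with 20 tags. The shorter classes had slightly more such pairs, 3.8% at 300 to under 1000 nt and 3.64% at 100 to under 300 nt. Among members with at least 200 tags in every tissue library, the steadiest was the chromosome 6 pair at 119875569 and 119873988 (minus strand, 1581 nt), between 93.1% in liver wild type and 97.7% in muscle knockout. The chromosome 3 pair at 95465858 and 95467098 (plus strand, 1240 nt) ran from 89.0% in heart knockout to 95.7% in adipose knockout. The chromosome 10 pair at 60894525 and 60891239 (minus strand, 3286 nt) ran from 91.2% in kidney wild type to 99.4% in muscle wild type. In mESC the 3 pairs had 52.8%, 50.3% and 33.9%, all below their tissue ranges. In 3T3 the first 2 had 82.1% and 38.1%, also below, while the chromosome 10 pair had 94.9%, inside its tissue range. Over the tissue libraries alone, the proximal sites of the chromosome 6 and chromosome 10 pairs held under 5% of the tags. These pairs passed the share filter through the cultured cells. Their low mESC shares, and the 3T3 share of the chromosome 6 pair, are therefore partly fixed by the rule. The chromosome 13 pair at 113297048 and 113299552 (plus strand, 2504 nt), also among the widest, divided the tissues, with 55.6% in kidney knockout and 40.5% in kidney wild type, 41.3% in liver knockout and 34.8% in liver wild type, and 1.37% to 17.9% in the other 8 libraries.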

How the data were processed

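The authors deposited, for each library, intervals with a strand and an expected count of tags, not scaled; between 1.21% and 5.79% of the values of a library are not whole. The submitters' processing notes name CASAVA 1.7, Bowtie and mm9; Bowtie's version and the grouping of reads into sites are not given in the sources used here. Lists were merged and filtered as described with the members, and counts were rounded. In R 4.3.3, edgeR 4.0.16 fitted both sites of all 3304 pairs over the 12 tissue libraries (24 columns), with a term per library, distal-by-tissue terms and 1 distal-by-genotype term, TMM scaling and Benjamini-Hochberg adjustment over 3304 pairs. The common biological coefficient of variation was 0.262 with 5 residual degrees of freedom, so the 2 libraries of a tissue serve as its replicates. SE is the shift divided by the root of its F statistic. The correlation of sites used log2(CPM + 1), and the within-tissue odds a pseudocount of 0.5 tags. Named pairs are up to 3 called pairs of largest shift per tissue and direction, with 50 tags in all 12 tissue libraries and both libraries of the tissue beyond the other 10, those of smallest p for genotype, 2 per cell type and direction of largest gap, and the steadiest, widest and most abundant 3; not all are printed. Intervals are at 95%, and 0 tags allow 3 counts. Steps were tested on simulated counts. The members and rules were chosen with earlier results of these data known. Alternatives included DESeq2 1.42.0.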

Additional observations from a re-analysis of the deposited data

Results flagged for a closer look

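The median distal share of members in the lung knockout library, 59.5%, lay apart from the medians of the other 5 knockout libraries: its gap to the next, muscle, was 0.646 of the whole range, beyond the 95% limit of Dixon's test for 6 samples. The lung wild-type library, at 59.2%, was the highest of the 6 wild-type libraries but was not flagged in the same test. Chance flags about 1 group in 20, and 2 groups were examined.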

How the results depend on the processing

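The genotype test is itself paired by tissue, through its distal-by-tissue terms; with 1 distal term for all tissues instead it called 0 members, with 15 toward the distal and 5 toward the proximal site at an unadjusted edgeR p under 0.05. No paired analysis by replicate number was possible because each group has 1 library and the labels number none. Of 29 named tissue tests, 12 kept their call under every alternative that kept the pair and none turned round. The tissue counts stayed within 1.5 times under DESeq2, no TMM factor, a looser tag filter, a 10% minimum share, merging up to 24 nt, shares over the 12 tissue libraries and no genotype term. With 20 tags required in all 12 tissue libraries (608 pairs) they were 23 toward the proximal site in heart, 15 distal and 28 proximal in liver, 19 proximal in lung, and 10 distal and 18 proximal in kidney. With pairs sharing no site (851 pairs) they were 17 distal in heart, 30 proximal in liver, 24 proximal in lung, 12 distal and 33 proximal in adipose tissue, and 21 proximal in kidney. Both alternatives test fewer pairs. Leaving out 1 library at a time gave 13 to 31 distal and 9 to 54 proximal in heart, 7 to 90 and 7 to 58 in muscle, 12 to 52 and 9 to 70 in liver, 64 to 171 and 24 to 46 in lung, 3 to 36 and 2 to 75 in adipose tissue, 9 to 47 and 7 to 73 in kidney, and 0 to 1 and 0 to 0 for knockout; a lone library is then assumed to vary like the other groups. Requiring 100 tags in a library moved the median distal share to 33.6% in mESC, 31.9% in 3T3, 48.6% in knockout and 38.6% in wild-type heart, 57.9% and 56.4% in liver (knockout, then wild type), 63.6% and 66.3% in lung, 54.2% and 53.3% in kidney, and to 59.2% in wild-type muscle and 54.1% in wild-type adipose tissue. Members with 20 tags in all 12 gave 39.2% in mESC, 50% and 48.7% in knockout and wild-type liver, and 61.2% and 61.3% in lung. At 200 tags, 2-fold differences in knockout were 10% toward the distal (all pairs 10%) and 11.2% toward the proximal site in muscle (all pairs 10.6%), 7.02% proximal in liver (4.65%), 12.7% distal in lung (11.4%), 13.3% distal in adipose tissue (14.4%) and 11.96% proximal in kidney (13.1%); the cause was not tested. The shares of members above or below all tissues in mESC and 3T3 stayed inside their 95% intervals at 200 tags. Depth limits members under 50 tags, and the absence of replicates limits all tests.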
